A study of Homo sapiens with 4 samples.

Results

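Complex I, the NADH:ubiquinone oxidoreductase of the respiratory chain, was described here through its nuclear genes together with the protein genes of mitochondrial DNA. The nuclear genes were those whose symbol has the form NDUFA, NDUFB, NDUFC, NDUFS or NDUFV followed by a number (37 genes), and the mitochondrial ones were the 13 protein genes with the prefix MT-. These 50 genes were found among 58229 genes of the expression table, and all 50 had at least 1 FPKM (fragments of a gene scaled to the length of its transcript and to the size of the library) in at least 2 libraries, so none was lost to the filter on low values. RNA was sequenced from CD31+ cells that had been derived from the human embryonic stem cell line H1 and collected at day 8 of hematopoietic differentiation. The Control group (2 libraries) was derived from H1, and the HAND1_OE group (2 libraries) from H1 with overexpression of HAND1, a transcription factor of mesoderm and heart that the study expressed before the switch from hemogenic endothelial to hematopoietic progenitors. Both groups went through the same stepwise culture, with activin A and BMP4 followed by VEGF and bFGF, and CD31, encoded by PECAM1, marks endothelial cells, hemogenic endothelium included. How HAND1 was delivered, and whether the overexpressing cells were a clone, is not given in the sources used here. The labels also do not say whether libraries of a group came from separate cultures, so the p-values measure the spread between these libraries, which may be technical.

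Complex I takes electrons from NADH, passes them along iron-sulfur clusters to ubiquinone and pumps protons across the inner mitochondrial membrane. Its catalytic core is built from subunits of both genomes: those from nuclear genes, among them NDUFS1, NDUFS3, NDUFS7, NDUFS8, NDUFV1 and NDUFV2, form the arm that reaches into the matrix, and the MT-ND proteins form the proton-pumping arm in the membrane. The other NDUF proteins are accessory subunits, which surround the core, and many of them are needed for its assembly and stability. NDUFA4 carries a complex I name but is now counted as a subunit of complex IV. The remaining protein genes of mitochondrial DNA encode the core of complex IV (MT-CO1, MT-CO2, MT-CO3), cytochrome b of complex III (MT-CYB) and subunits of ATP synthase (MT-ATP6, MT-ATP8). Mitochondrial DNA is transcribed into long RNAs that are cut mostly at the tRNAs between genes, without introns, whereas each nuclear gene has its own promoter. Pluripotent and many progenitor cells rely largely on glycolysis, and respiration is known to rise as such cells mature.

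For 2 pairs of neighbouring mitochondrial genes the coding sequences overlap and are known to stay on a shared RNA, which matters for how a level per gene is read. The shorter gene of each pair is shown in the reference sequence (GRCh38, plus strand of chrM, 5′ to 3′), with the bases that it shares with the next gene in capitals.
MT-ATP8: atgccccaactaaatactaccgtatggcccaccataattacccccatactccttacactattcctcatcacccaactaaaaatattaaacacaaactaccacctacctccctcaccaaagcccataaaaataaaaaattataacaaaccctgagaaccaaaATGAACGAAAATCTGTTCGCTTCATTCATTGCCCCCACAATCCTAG
MT-ND4L: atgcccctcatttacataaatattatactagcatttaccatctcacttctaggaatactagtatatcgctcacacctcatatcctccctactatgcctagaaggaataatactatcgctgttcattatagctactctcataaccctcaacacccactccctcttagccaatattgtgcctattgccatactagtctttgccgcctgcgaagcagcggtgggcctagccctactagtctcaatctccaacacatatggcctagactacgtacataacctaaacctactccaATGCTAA
MT-ATP8 lies at chrM:8366-8572, and 46 of its 207 bases (22.2%) are also the start of MT-ATP6 (681 bases). MT-ND4L lies at chrM:10470-10766 and shares 7 of 297 bases (2.36%) with MT-ND4 (1378 bases). MT-ATP6 and MT-CO3 also share 1 base, at position 9207. Reads from the capital letters belong to both genes, so the division of these reads between them is uncertain. The other mitochondrial genes were 346 (MT-ND3) to 1812 (MT-ND5) bases long. MT-ND6 is encoded on the opposite strand to all the others, and the library kit, an Illumina TruSeq RNA kit, is not stated to mark strand, so its reads cannot be told apart from antisense RNA.

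Nuclear members were compared for short promoter motifs (250 bases before to 50 after a start, RefSeq, GRCh38.p14), because respiratory genes are known targets of NRF1, of ETS factors such as GABPA and of YY1. Promoter entries were found for 31 of the 37 nuclear members, with 38 promoters in all. Counting both strands, the NRF1 motif GCGCATGC was present in 6 of the 38 (15.8%) against 3.05% of 35116 promoters of all genes, and the YY1 motif AAGATGGC in 7 (18.4%) against 2.89%. The ETS motif CCGGAAG was present in 5 (13.2%) against 10.3%. NDUFS3, the nuclear member with the lowest fold change below, held the ETS motif at 2 places (first bases 149 and 168 of the window, on opposite strands), given in capitals in its promoter at chr11:47578824-47579123, plus strand, around a RefSeq start that lies inside the interval of the gene given below.
NDUFS3: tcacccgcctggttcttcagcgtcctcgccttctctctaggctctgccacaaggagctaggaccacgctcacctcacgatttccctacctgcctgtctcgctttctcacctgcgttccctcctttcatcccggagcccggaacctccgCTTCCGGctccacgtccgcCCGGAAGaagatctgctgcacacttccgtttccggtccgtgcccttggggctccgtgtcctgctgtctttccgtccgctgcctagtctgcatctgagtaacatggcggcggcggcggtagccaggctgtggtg
These matches describe letters in a window and were not tested for binding. The ETS motif was also held by NDUFB7 and NDUFA1, with log2 fold changes (HAND1_OE minus Control) of 0.25 and 0.057. It was held as well by NDUFA13 and NDUFS1, which were close to level (-0.0011 and -0.0017). NDUFB3, with a fold change of 0.33, held no match, and a link of motifs to fold changes was not tested.

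HAND1 itself stood at 12.1 and 14.3 FPKM in Control and 520 and 517 FPKM in HAND1_OE (log2 fold change of 5.20, SE 0.15, adjusted p = 0.00145 by limma), which matches the labels; when all 29860 genes above 0 were tested in place of 14622, no gene was called, HAND1 included (adjusted p = 0.153), and 3810 passed an unadjusted p of 0.05. Summed FPKM ranged from 536284 to 606609 per library. The files hold no counts, so the depth behind each value is unknown and no counting interval can be given. Across all genes 608 of 14622 (4.16%) passed an adjusted p of 0.05, 2551 (17.4%) an unadjusted p of 0.05, and in 6770 (46.3%) the HAND1_OE libraries did not overlap with the Control libraries.

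No nuclear and no mitochondrially encoded member was called higher or lower in HAND1_OE than in Control (limma, adjusted p under 0.05). At an unadjusted p of 0.05, 1 of 50 members passed (NDUFC2), against 17.4% of all genes tested. The groups did not overlap for 7 of 50 members (14.0%), 4 of the 37 nuclear and 3 of the 13 mitochondrial ones, against 46.3% of all genes. On the log2(FPKM + 1) scale, fold changes of nuclear members ranged from -0.22 (NDUFS3) to 0.51 (NDUFC2) with a median of -0.0017, and those of mitochondrial members from -0.27 (MT-CO1) to 0.25 (MT-ND4L) with a median of 0.0030. The median over all genes tested was -0.078. The smallest adjusted p was 0.269 among nuclear and 0.641 among mitochondrial members. A p above the threshold does not show that levels were equal: the 95% confidence interval lay within a log2 change of 1 in either direction for 49 of 50 members, and within 0.5 for 14. MT-ND4L was the exception to the first count, with an interval from -0.61 to 1.12. Over all 14622 genes tested, the interval lay within 1 for 11145 and within 0.5 for 1915. After median-ratio scaling of the libraries the medians of nuclear and mitochondrial members were 0.11 and 0.11 and that of all genes 0.018, and 33 of 37 nuclear members then lay above 0 in place of 17.

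**Figure D1:**
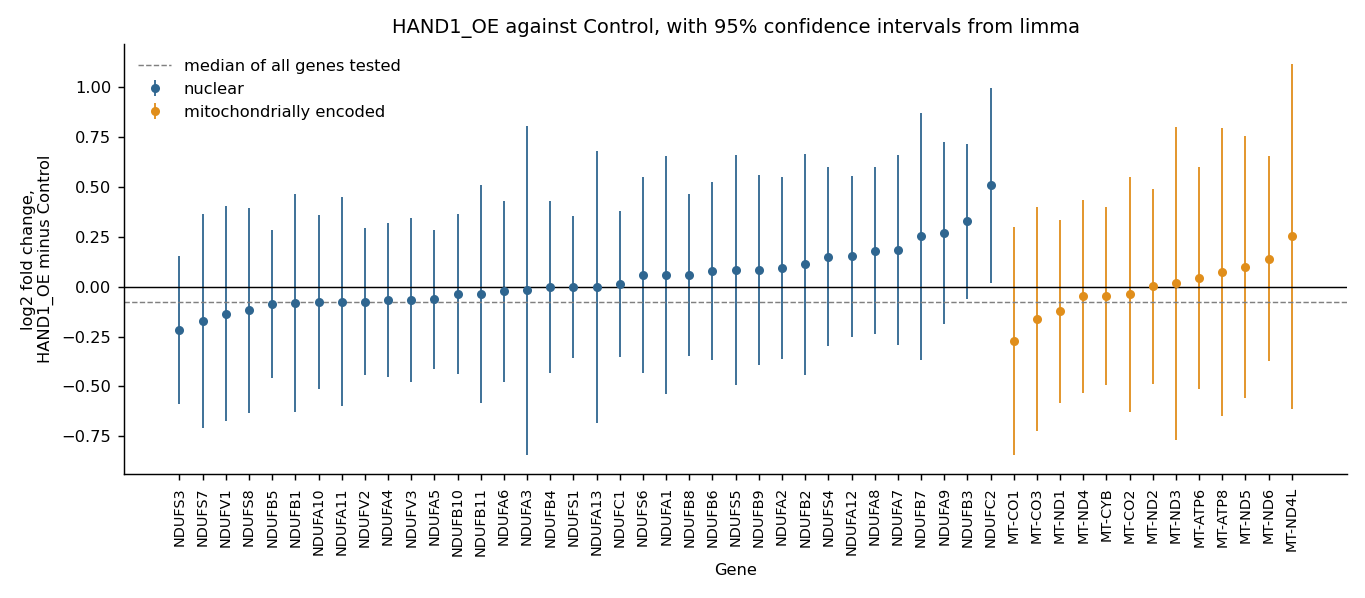
Log2 fold change (HAND1_OE minus Control, vertical axis) of 36 of the nuclear and all 13 mitochondrially encoded genes, each with its 95% confidence interval from limma. The dashed line is the median of all 14622 genes tested (-0.078); every interval but that of NDUFC2 (0.018 to 0.998) includes 0.

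The 7 nuclear core subunits had fold changes of -0.22 to -0.0017 with a median of -0.12, and none passed the test. NDUFS3, which helps to join the matrix arm to the membrane arm (chr11:47565336-47584562), was at 71.6 and 61.8 FPKM in Control and 57.6 and 56.4 FPKM in HAND1_OE. The groups of NDUFS3 did not overlap, with a log2 fold change of -0.22 (SE 0.15, adjusted p = 0.550). The other core subunits had overlapping groups. NDUFS7, which carries the last iron-sulfur cluster before ubiquinone, was at 100.2 and 78.5 FPKM in Control and 91.8 and 67.4 FPKM in HAND1_OE (log2 fold change of -0.17, SE 0.22). NDUFV1, which binds NADH, was at 116 and 88.8 FPKM in Control and 107 and 80.2 FPKM in HAND1_OE (-0.14, SE 0.22). NDUFS8, an iron-sulfur protein, was at 130 and 105 FPKM in Control and 125 and 92.8 FPKM in HAND1_OE (-0.12, SE 0.21). In these last 3 genes the replicate 2 library was the lower in each group, by more than the groups differed. NDUFV2, another iron-sulfur protein of the NADH-binding module, was at 67.2 and 58.3 FPKM in Control and 60.4 and 58.4 FPKM in HAND1_OE. NDUFS1, the largest iron-sulfur subunit, was at 25.8 and 24.8 FPKM in Control and 24.3 and 26.2 FPKM in HAND1_OE. NDUFS1 was close to level, with a log2 fold change of -0.0017 (SE 0.14). The sign of the core subunits depended on the scale and on single libraries: 3 of 7 lay above 0 after median-ratio scaling, and 6 of 7 without Control replicate 1, where their median was 0.026.

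Among the 30 other nuclear members, 17 had fold changes above 0 and 13 below, with a median of 0.057. NDUFC2, an accessory subunit of the membrane arm (chr11:78068304-78080219), was at 337 and 252 FPKM in Control and 430 and 399 FPKM in HAND1_OE. The HAND1_OE libraries were higher than either Control library, with a difference of 0.51 on the log2 scale (SE 0.20, unadjusted p = 0.0443, adjusted p = 0.269). With Control replicate 2 left out the difference was 0.30, and with Control replicate 1 left out 0.72. The annotated readthrough transcript NDUFC2-KCTD14, which overlaps it, was at 0.382 to 1.63 FPKM. NDUFB3, a small membrane-arm subunit (chr2:201071433-201085750), was at 54.2 and 45.1 FPKM in Control and 61.8 and 62.8 FPKM in HAND1_OE. The groups did not overlap either, and the log2 fold change was 0.33 (SE 0.16, adjusted p = 0.373). NDUFA9, near the ubiquinone site, was at 45.6 and 36.4 FPKM in Control and 54.0 and 45.0 FPKM in HAND1_OE (0.27, SE 0.18). NDUFB7, a membrane-arm subunit of the intermembrane side, was at 149 and 99.96 FPKM in Control and 167 and 126 FPKM in HAND1_OE (0.25, SE 0.25). NDUFA7 was at 70.1 and 52.5 FPKM in Control and 74.1 and 64.3 FPKM in HAND1_OE (0.18, SE 0.19). In NDUFA9, NDUFB7 and NDUFA7 the groups overlapped. Without Control replicate 2 the values of NDUFB7 and NDUFA7 were -0.031 and -0.021. NDUFB5, a membrane-arm subunit with the lowest fold change among accessory members, was at 62.5 and 68.9 FPKM in Control and 65.4 and 58.4 FPKM in HAND1_OE (-0.086, SE 0.15). NDUFA5, named after its values were seen, completed the 4 nuclear genes without overlap: it was at 25.0 and 24.1 FPKM in Control and 23.9 and 23.0 FPKM in HAND1_OE, a difference of -0.064 (SE 0.14).

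Levels of the nuclear members spread over a 20.5- to 30.8-fold range within a library, with medians of 69.2 to 90.2 FPKM. NDUFC2, NDUFS5, NDUFB1 and NDUFB2 had a mean of 200 FPKM or more, 10 genes a mean of 100 to 200, 19 a mean of 30 to 100, and NDUFS1, NDUFA5, NDUFB6 and NDUFV3 a mean under 30. NDUFS5, an accessory subunit of the intermembrane side, was at 378 and 266 FPKM in Control and 374 and 300.1 FPKM in HAND1_OE. NDUFV3, an accessory subunit of the NADH-binding module, was the lowest at 15.5 and 12.95 FPKM in Control and 14.1 and 12.9 FPKM in HAND1_OE. By subunit class, the median fold change was -0.0011 for the 13 NDUFA genes, 0.059 for the 11 NDUFB genes, -0.0061 for the 8 NDUFS genes and -0.075 for the 3 NDUFV genes, and the 2 NDUFC genes had 0.51 (NDUFC2) and 0.012 (NDUFC1).

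**Figure D2:**
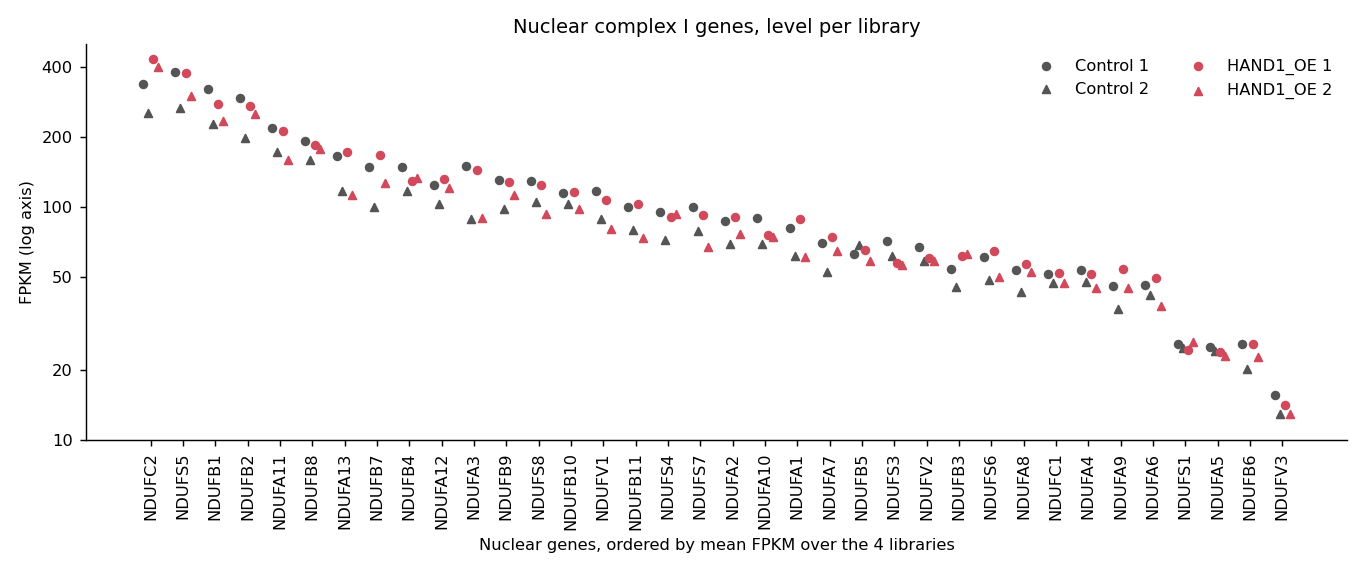
FPKM (log axis) of 36 nuclear genes in the 4 libraries, ordered by mean; grey marks Control and red HAND1_OE, circles replicate 1 and triangles replicate 2. Triangles sit below the circles of the same colour in both groups for 31 of these 36 genes, and the red points of NDUFC2 (399 and 430) lie above its grey points (252 and 337).

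Most mitochondrially encoded genes had far higher FPKM values than the nuclear ones. MT-CYB, MT-ND6 and MT-ND5, however, had means of 66.1, 60.3 and 19.0 FPKM, below the nuclear medians of 69.2 to 90.2 FPKM. Within a library the levels of the mitochondrial genes differed by 472 to 626 times. Of these genes 6 or 7 were among the 20 highest genes of the whole table. Ordered by mean, MT-ATP8 was the highest, followed by MT-ND3, MT-CO2 and MT-CO1, then MT-CO3 and MT-ATP6, then MT-ND4L, then MT-ND2 and MT-ND1, then MT-ND4, then MT-CYB and MT-ND6, and last MT-ND5. Of the 12 steps between neighbours in this order, 6 separated ranges that did not overlap over the 4 libraries: those from MT-CO1 to MT-CO3, MT-ATP6 to MT-ND4L, MT-ND4L to MT-ND2, MT-ND1 to MT-ND4, MT-ND4 to MT-CYB and MT-ND6 to MT-ND5. The ranges of the other neighbours overlapped, although within each library MT-CO2 exceeded MT-CO1 (by 1.04 to 1.29 times) and MT-ND2 exceeded MT-ND1 (by 1.02 to 1.198 times). Along mitochondrial DNA, levels were 1225 to 11634 FPKM from MT-ND1 to MT-ND4L, 869.8 to 1058 FPKM at MT-ND4 and 15.1 to 76.2 FPKM from MT-ND5 to MT-CYB. In the order by mean MT-CYB follows MT-ND4, and that step was 12.3- to 17.95-fold in the 4 libraries. Along the DNA, MT-ND5 and MT-ND6 lie between these genes. Read as FPKM, these are values divided by gene length. How length was treated for short genes such as MT-ATP8, MT-ND4L and MT-ND3 is not stated. The submitters' notes name RSEM, which divides reads with several possible origins by an estimate, but do not state its role. MT-ND5 and MT-CYB, with low values, are longer genes (1812 and 1141 bases), and whether their FPKM follows the amount of RNA was not tested.

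**Figure D3:**
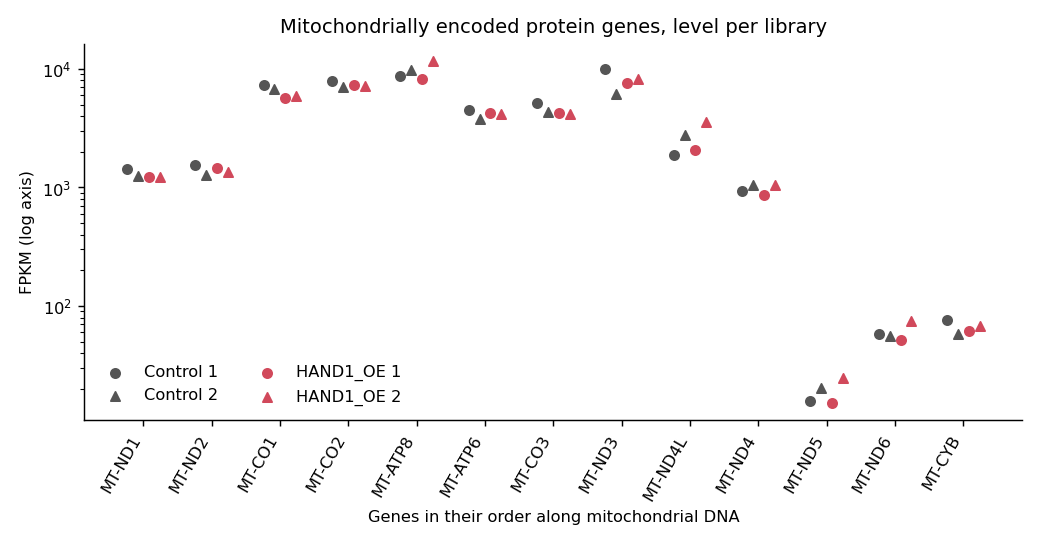
FPKM (log axis) of the 13 mitochondrially encoded protein genes in the 4 libraries, in their order along mitochondrial DNA; grey marks Control and red HAND1_OE, circles replicate 1 and triangles replicate 2. MT-CO1 to MT-ND3 lie between 3745 and 11634 FPKM, and MT-ND5, MT-ND6 and MT-CYB between 15.1 and 76.2 FPKM.

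Of the membrane-arm core genes of complex I, MT-ND1 was the only one whose groups did not overlap, at 1430.5 and 1257 FPKM in Control and 1225 and 1235 FPKM in HAND1_OE (log2 fold change of -0.12, SE 0.18, adjusted p = 0.817). MT-ND2 was at 1536 and 1285 FPKM in Control and 1468 and 1350.2 FPKM in HAND1_OE (0.0030, SE 0.20). MT-ND3, at 9970.4 and 6151 FPKM in Control and 7659 and 8186 FPKM in HAND1_OE, had a wider spread between Control libraries than between groups (0.016, SE 0.31). MT-ND4, one of the antiporter-like pump subunits, was at 937 and 1052 FPKM in Control and 869.8 and 1058 FPKM in HAND1_OE (-0.049, SE 0.19). MT-ND4L, its small neighbour, was at 1891 and 2755 FPKM in Control and 2059 and 3591 FPKM in HAND1_OE (0.25, SE 0.35). In both genes the replicate 2 library was the higher in each group. MT-ND5, the most distant pump subunit and the lowest of the 13 genes, was at 15.9 and 20.4 FPKM in Control and 15.1 and 24.6 FPKM in HAND1_OE (0.097, SE 0.26). MT-ND6 was at 57.5 and 56.1 FPKM in Control and 52.2 and 75.4 FPKM in HAND1_OE (0.14, SE 0.21). For MT-ND5 and MT-ND6 the HAND1_OE libraries enclosed the Control libraries.

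The MT-CO genes, which encode the catalytic core of cytochrome c oxidase, had fold changes of -0.27 to -0.039, those of MT-CO1 and MT-CO3 being the lowest of the mitochondrial members, and none passed the test. MT-CO1, the subunit that holds the site of oxygen reduction, was at 7297 and 6799 FPKM in Control and 5702 and 5957 FPKM in HAND1_OE. Its groups did not overlap (log2 fold change of -0.27, SE 0.23, adjusted p = 0.641). MT-CO3 was at 5109 and 4306 FPKM in Control and 4226 and 4151 FPKM in HAND1_OE (-0.16, SE 0.23, adjusted p = 0.801), again without overlap. MT-CO2, which receives electrons from cytochrome c, was at 7909.5 and 7074 FPKM in Control and 7373 and 7189 FPKM in HAND1_OE (-0.039, SE 0.24), and its groups overlapped. Their median was -0.16, and it was -0.052 after median-ratio scaling, with MT-CO2 above 0. MT-ATP6, the proton channel of ATP synthase, was at 4461 and 3745 FPKM in Control and 4285 and 4148 FPKM in HAND1_OE (0.045, SE 0.22). MT-ATP8 was at 8756 and 9786 FPKM in Control and 8172 and 11634 FPKM in HAND1_OE (0.075, SE 0.29). MT-CYB was at 76.2 and 58.6 FPKM in Control and 62.0 and 67.5 FPKM in HAND1_OE (-0.046, SE 0.18). In all 3 of these genes the groups overlapped.

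Genes that share a mitochondrial RNA did not have equal FPKM values. MT-ATP8 exceeded MT-ATP6 in every library, by a ratio of 1.96 and 2.61 in Control and 1.91 and 2.80 in HAND1_OE. MT-ND4L likewise exceeded MT-ND4, by 2.02 and 2.62 in Control and 2.37 and 3.40 in HAND1_OE. The shorter gene of each pair (207 and 297 bases, shown above) was thus the higher in all 4 libraries, and both ratios were higher in replicate 2 than in replicate 1 of each group. FPKM divides by length, and how length was treated for such short genes is not stated. The ratios therefore need not be ratios of RNA amount. Between groups the log2 ratios differed by 0.030 for MT-ATP8 to MT-ATP6 (exact permutation p = 1, two-sided) and by 0.30 for MT-ND4L to MT-ND4 (exact permutation p = 0.667). These were 2 of 4 values tested in this way, with a Benjamini-Hochberg adjusted p of 1 for each, and with 2 libraries per group the smallest p that this test can give is 0.33.

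Summed over genes, the mitochondrial members exceeded the nuclear ones 10.05- to 13.4-fold, and the ratio did not separate the groups. The 13 mitochondrial genes summed to 49446 and 44346 FPKM in Control and 43169 and 48667 FPKM in HAND1_OE, and the 37 nuclear genes to 4300.3 and 3310 FPKM in Control and 4297 and 3645 FPKM in HAND1_OE. Their ratio was 11.5 and 13.4 in Control and 10.05 and 13.4 in HAND1_OE, a difference of -0.10 on the log2 scale (exact permutation p = 0.667). The replicate 2 library had the higher ratio in each group, by 0.22 in Control and 0.41 in HAND1_OE on the log2 scale. Mitochondrial members took 8.15% and 8.27% of all FPKM in Control and 7.46% and 8.92% in HAND1_OE (exact permutation p = 1), and nuclear members took 0.709% and 0.617% in Control and 0.742% and 0.668% in HAND1_OE. The sign of the ratio between groups was decided by single libraries: leaving out Control replicate 2 gave 0.010, and leaving out HAND1_OE replicate 1 gave 0.11. These bulk values cannot tell fewer cells with a given level from less RNA per cell.

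**Figure D4:**
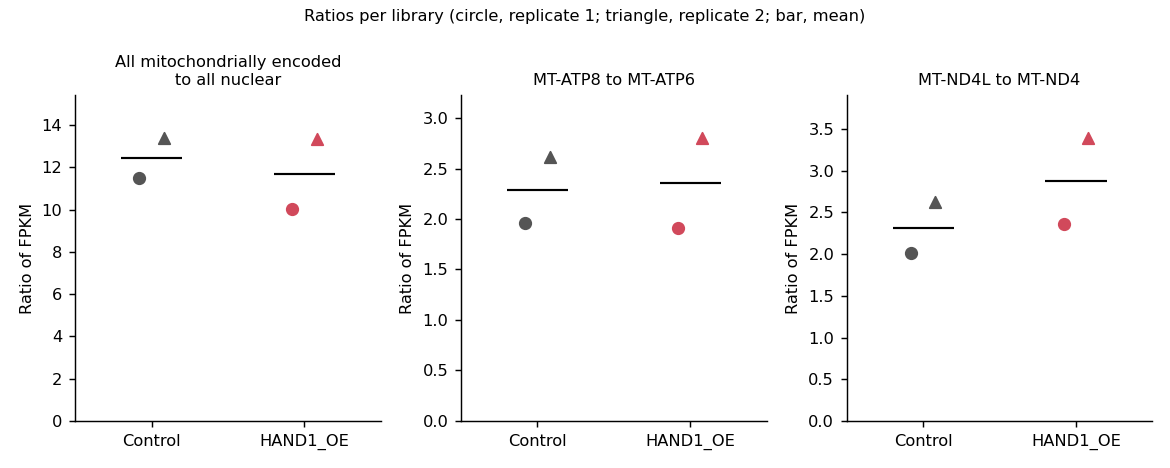
Ratios of FPKM per library: summed mitochondrially encoded to summed nuclear genes, MT-ATP8 to MT-ATP6, and MT-ND4L to MT-ND4; circles are replicate 1, triangles replicate 2 and bars the group mean. Each triangle lies above the circle of its group (13.4 above 11.5 and 13.4 above 10.05 in the left panel), and the groups overlap in each panel.

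Between the replicates of a group, most nuclear members differed in the same direction in Control and HAND1_OE, and mitochondrial members differed in either direction. The labels number the libraries of each group but do not say that a shared number means a shared culture or day, and the differences between replicates are given without a test. Replicate 2 was lower than replicate 1 for 36 of 37 nuclear members in Control (median difference of -0.32 in log2(FPKM + 1)) and for 33 of 37 in HAND1_OE (median of -0.19). It was lower in both groups for 32 of 37 (86.5%) and higher in both for 0, where 36.8% of all genes tested were lower in both and 33.3% higher in both. Among mitochondrial members it was lower in both groups for 4 of 13 and higher in both for another 4, which were MT-ATP8, MT-ND4L, MT-ND4 and MT-ND5. The mitochondrial medians were -0.16 in Control and 0.096 in HAND1_OE, and those of all genes were -0.033 and 0.0059. After other scalings (median-ratio, the sum of genes outside mitochondrial DNA, TPM), 21 to 33 of 37 nuclear members were lower in both groups against 22.4% to 37.5% of all genes, and the nuclear medians stayed below 0 in both groups, at -0.14 and -0.080 when closest to it. The mitochondrial medians were not of one sign: in Control they lay at 0.017 to 0.019 after the 2 scalings by sums and at -0.14 after median-ratio scaling. In HAND1_OE they were 0.20 and 0.18 after the scalings by sums, with 12 of 13 genes higher in replicate 2, and 0.066 after median-ratio scaling. After either scaling by sums 1 of 13 mitochondrial members was lower and 7 were higher in both groups, and after median-ratio scaling 5 and 4.

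Among nuclear members the drop was largest in NDUFA3, a small accessory subunit, at 150 and 89.0 FPKM in Control and 145 and 89.8 FPKM in HAND1_OE, a difference of -0.75 and -0.68 on the log2 scale. NDUFA13, also known as GRIM-19, was at 166 and 116 FPKM in Control and 172 and 112 FPKM in HAND1_OE (-0.51 and -0.61). Both were named after their values were seen. All 13 NDUFA genes were lower in replicate 2 of both groups, as were 8 of 11 NDUFB, 6 of 8 NDUFS and all 3 NDUFV genes. At the other end MT-ND4L was higher in replicate 2 by 0.54 in Control and 0.80 in HAND1_OE, and MT-ND5 by 0.34 and 0.67. Across the 37 nuclear members the difference had a Spearman's rho of -0.35 in Control and -0.64 in HAND1_OE with the GC content of the transcript, and 0.34 and 0.15 with its length. These correlations run across genes of the same libraries, which are not independent. Total FPKM was also lower in replicate 2, at 606609 and 536284 in Control and 578913 and 545598 in HAND1_OE. PECAM1, which encodes the sorted protein CD31, was higher in replicate 2, at 95.5 and 141 FPKM in Control and 92.0 and 160 FPKM in HAND1_OE. The endothelial markers did not all do so: 6 of 8 were lower in replicate 2 of Control and 1 of 8 in HAND1_OE (medians of -0.20 and 0.15), and 2 were higher in both. The part of these quantities in the replicate difference was not tested.

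**Figure D5:**
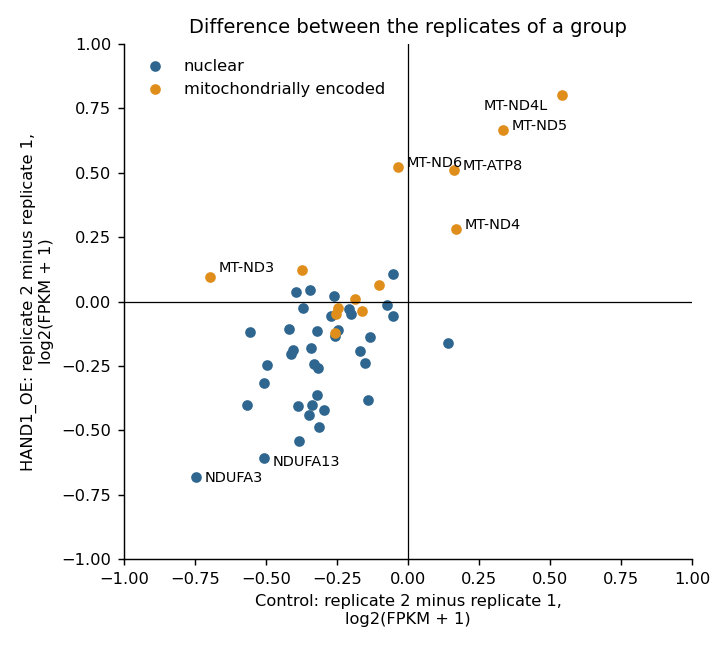
Replicate 2 minus replicate 1 in log2(FPKM + 1) within Control (horizontal axis) and within HAND1_OE (vertical axis), 1 point per gene, nuclear in blue and mitochondrially encoded in orange. The lower left quadrant holds 32 of 37 nuclear genes, and the upper right quadrant holds 4 mitochondrial genes (MT-ATP8, MT-ND4L, MT-ND4 and MT-ND5) and no nuclear gene.

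Compared at equal replicate number, most mitochondrial members had opposite signs at the 2 numbers. At replicate 1 the HAND1_OE library was higher than Control for 1 of 13 mitochondrial members (median of -0.11), and at replicate 2 for 10 of 13 (median of 0.15). For nuclear members it was higher for 16 of 37 at replicate 1 (median of -0.027) and for 23 of 37 at replicate 2 (median of 0.036). The fold change had the same sign at both numbers for 18 nuclear and 4 mitochondrial members (22 of 50), and for 10453 of all 14622 genes, whose medians were -0.10 at replicate 1 and -0.053 at replicate 2. The 3 mitochondrial genes that were lower at both numbers were MT-CO1 (-0.36 and -0.19), MT-CO3 (-0.27 and -0.053) and MT-ND1 (-0.22 and -0.025), and MT-ND4L was higher at both (0.12 and 0.38).

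Other respiratory chain genes were read from lists of nuclear genes. None of the 4 genes of complex II, 9 of complex III, 10 of complex IV and 15 of complex V was called in either direction, at an unadjusted p of 0.05 none passed, and their median fold changes were -0.0052, -0.016, 0.049 and -0.017. The member of each with the largest change was SDHD (-0.24), UQCRQ (0.28), COX6A1 (0.39) and ATP5I (0.29). None of 16 complex I assembly factors was called (1 at an unadjusted p of 0.05), and the largest change was that of TMEM70, at 14.4 and 19.1 FPKM in Control and 9.90 and 12.2 FPKM in HAND1_OE (log2 fold change of -0.55, SE 0.20, adjusted p = 0.243). Of the subunit genes that the symbol rule leaves out, NDUFAB1, the mitochondrial acyl carrier protein, had a fold change of 0.10 (SE 0.16), and NDUFA4L2 stayed under 0.3 FPKM. Replicate 2 was lower in both groups for 10 of 10 complex IV, 14 of 15 complex V, 8 of 9 complex III and 2 of 4 complex II genes, and for 52 of 75 genes of mitochondrial ribosomal proteins, of which none was called (2 at an unadjusted p of 0.05).

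None of 18 genes that act on mitochondrial DNA and its RNA was called. Of these 5 had fold changes above 0 and 13 below, with a median of -0.099 against -0.078 for all genes, and 1 passed an unadjusted p of 0.05. TFAM, named outside the naming rule, packages mitochondrial DNA and starts its transcription, and was not the gene that passed. It was at 14.2 and 14.0 FPKM in Control and 10.1 and 11.4 FPKM in HAND1_OE (log2 fold change of -0.36, SE 0.15, adjusted p = 0.318). PNPT1, an RNA-degrading enzyme of mitochondria, had the largest change, at 16.0 and 6.68 FPKM in Control and 5.16 and 6.08 FPKM in HAND1_OE, with Control replicate 1 above the other 3 libraries. Of 12 regulators of nuclear respiratory genes 9 could be tested, of which 3 had fold changes above 0 and 6 below, with a median of -0.15. The only one called was PPARG, a nuclear receptor of lipid metabolism. It was higher in HAND1_OE, at 1.77 and 0.940 FPKM in Control and 35.5 and 28.0 FPKM in HAND1_OE (3.81, SE 0.24, adjusted p = 0.00607). PPARGC1A, the coactivator best known for driving mitochondrial genes, was at 0.505 and 1.04 FPKM in Control and 0.266 and 0.832 FPKM in HAND1_OE and was not tested.

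Mitochondrial ribosomal RNAs, the most abundant RNAs of mitochondria, were low in the table: MT-RNR1 was at 7.87 to 11.7 FPKM and MT-RNR2 at 34.2 to 52.5 FPKM, and all 22 mitochondrial tRNA genes were listed at 0. MT-RNR1 was at 11.7 and 11.4 FPKM in Control and 7.87 and 8.71 FPKM in HAND1_OE (log2 fold change of -0.43, SE 0.16, adjusted p = 0.239). Annotated pseudogene copies of mitochondrial genes in the nuclear genome (392 entries by symbol) took 317 to 392 FPKM per library, 0.651% to 0.884% of the sum of the 13 genes. The highest were MTATP6P1 (139 to 183 FPKM) and MTCO2P2, which was at 81.0 and 95.9 FPKM in Control and 48.0 and 36.6 FPKM in HAND1_OE (-1.06, SE 0.19, adjusted p = 0.0469). Levels of such copies and of their mitochondrial sources are uncertain where reads fit both. Copies of the nuclear members took 3.48 to 55.9 FPKM, and the upper value came from NDUFB1P2, at 51.5 FPKM in Control replicate 2 and listed at 0 in the other libraries. NDUFB1 itself was at 321 and 227 FPKM in Control and 277 and 234 FPKM in HAND1_OE.

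Markers of blood lineages and some of mesenchyme were called between the groups, and endothelial and pluripotency markers were not. Endothelial markers were present in both groups, with a sum over 8 genes of 1239 to 1389 FPKM in Control and 1264 to 1404 FPKM in HAND1_OE and none called (1 of 8 at an unadjusted p of 0.05, EMCN). Erythroid markers summed to 412 to 663 FPKM in Control and 29.99 to 35.0 FPKM in HAND1_OE, with 7 of 8 called lower, among them GYPB (-4.93), HBE1 (-4.19) and ALAS2 (-4.18). All 6 megakaryocyte markers were called lower (NFE2 by -3.76, ITGA2B by -3.62, ITGB3 by -3.07), from sums of 153 to 193 FPKM to 9.14 to 15.2 FPKM, and GP9, ITGB3 and PF4 were under 1 FPKM in HAND1_OE. All 4 myeloid markers tested had fold changes below 0 without overlap of the groups, 3 of them called (AIF1, TYROBP and SPI1), and their sum over 6 genes fell from 72.8 to 105 FPKM to 7.18 to 10.9 FPKM. Mesenchyme markers summed to 212 to 284 FPKM in Control and 406 to 498 FPKM in HAND1_OE. Of 7 tested, 3 were called higher (PDGFRB 2.03, POSTN 1.97, LUM 1.41). In all, 5 of the 7 had fold changes above 0 and 2 below (lowest of -0.23), 1 of these 2 without overlap of the groups. Of 6 cardiac muscle markers tested 2 had fold changes above 0 and 4 below; MYL4 was called lower (-3.80), and TNNT2 was at 1.39 and 1.64 FPKM in Control and 3.50 and 6.37 FPKM in HAND1_OE (1.196, SE 0.28, adjusted p = 0.0914). Of 3 pluripotency markers tested none was called (1 at an unadjusted p of 0.05, LIN28A), with NANOG and SOX2 under 1 FPKM in every library. The summed levels of the blood lineage markers were thus higher in Control, and the part of this difference in the levels of the respiratory genes was not tested.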

How the data were processed

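RNA was measured by sequencing in 2 Control and 2 HAND1_OE libraries of H1-derived CD31+ cells, grouped by their titles. The authors deposited a single table of 58365 rows whose unit is not stated in it, and its values were read as FPKM, the unit that the study plots. FPKM values are in general made from aligned reads by dividing the fragments of each gene by transcript length and library size. How the deposited values were made is not stated beyond the submitters' processing notes, which name BWA, Bowtie and RSEM, without versions or roles. They also name hg19, but the coordinates match GRCh38: 48 of 50 members have the same start and end in GENCODE 29. RSEM divides reads with several origins by an estimate. Gene coordinates are as in the table, with starts counted from 1. Left out were 45 rows of Y copies and 91 further rows that shared a gene ID (of these the highest by mean stayed in). Transcript length and GC content came from GENCODE 29, and promoters from RefSeq.

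Values were analysed as log2(FPKM + 1), which understates changes of low genes. The filter of 1 FPKM or more in 2 or more libraries left 14622 genes. They were fitted with limma 3.58.1 under R 4.3.3, using its trend of variance on mean, and Benjamini-Hochberg adjustment ran over all of them. Adjusted p-values for genes are from this two-sided test; the code was tested on simulated data. The 4 ratios or shares per library (mitochondrial to nuclear sum, mitochondrial share, MT-ATP8 to MT-ATP6, MT-ND4L to MT-ND4) were compared by an exact permutation test over all divisions of the libraries into groups. Their p-values were adjusted by Benjamini-Hochberg in scipy 1.17.1. Errors are SE from limma. Members and gene lists were chosen with earlier results of these data known. Named by rule were the 13 mitochondrial genes, the 7 nuclear core subunits, members with an adjusted p under 0.05, the 5 largest rises and falls among nuclear members, HAND1, and from each other list up to 3 called genes or the largest change. The values of 1 nuclear member are not reported here on its own, though it is in all counts and medians. Alternatives were a pseudocount of 0.1, other filters on low values, 4 other scalings, the replicate number as a block, limma without the trend, and each library left out. Leaving out the members under 300 nt was added after seeing the data.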

Additional observations from a re-analysis of the deposited data

How the results depend on the processing

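Under 13 alternative settings no nuclear or mitochondrially encoded member passed an adjusted p of 0.05, and the lowest adjusted p of a named member was 0.0712. In the settings that kept all libraries, 0 to 4 of 37 nuclear members passed an unadjusted p of 0.05. Across all genes the same threshold was passed by 2111 (of 12841 tested) to 4191 (of 14622). With the threshold on low values removed (all genes above 0) no gene of the table was called (3810 at an unadjusted p of 0.05), and HAND1 kept a log2 fold change of 5.20 with an adjusted p = 0.153. In 42 of 338 recomputed values of named members the sign differed from the reported one, in each case for a value smaller than its SE, as reported or as recomputed. Leaving out 1 library at a time, the median of nuclear members ranged from -0.11 (without Control replicate 2) to 0.17 (without Control replicate 1), that of mitochondrial members from -0.13 (without HAND1_OE replicate 2) to 0.021 (without HAND1_OE replicate 1), and their difference from -0.26 to 0.11, so single libraries decide these signs. Calls over the whole table numbered 285 without Control replicate 1 and 271 without Control replicate 2. The log2 ratio of the sums ranged from -0.31 to 0.11, and the mitochondrial share from -0.75 to 0.71 percentage points (HAND1_OE minus Control). Without MT-ATP8 and MT-ND4L the mitochondrial median was -0.039. With the replicate number as a replicate block, 1309 genes of the table were called in place of 608, and the nuclear and mitochondrial medians were unchanged at -0.0017 and 0.0030. In this setting 4 of 37 nuclear members passed an unadjusted p of 0.05, against 4191 of 14622 genes, and none passed an adjusted one. The labels do not say what else libraries with a shared number have in common. Across all genes tested, the differences between replicates 2 and 1 were compared between Control and HAND1_OE. They had a Pearson's r of 0.38 and a Spearman's rho of 0.52, from 2 pairs. Depth could not be read from the deposited values, and with 2 libraries per group a log2 change within the intervals given cannot be shown or dismissed.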
